A study of Danio rerio with 6 samples.

Results

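The non-sensory surrounding cells (nsSCs) of the adult zebrafish inner ear are the cells around the hair cells, and they were measured here as a mixture whose make-up is described from its own transcripts. The members are the 3 GFP-negative samples of the series, chosen by their labels, out of 6 samples in all. The other 3 are GFP-positive hair cells (HCs), and each of the 6 samples held about 1000 cells. The fish of both groups were adult females of 11 to 13 months of the strain Tg(pou4f3:GAP-GFP)s273t, in which the pou4f3 promoter drives a membrane-bound GFP in hair cells. Utricle, saccule and lagena of several fish were pooled and dissociated, and nsSCs were drawn one at a time into a suction pipette because they lacked both fluorescence and a stereocilia bundle. No marker selected any one type of nsSC, so that any cell of the dissociated tissue without GFP could enter a sample.

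The sensory patches of the fish inner ear hold hair cells and the supporting cells between them, and the epithelium continues into non-sensory cells that line the sacs and into ion-transporting cells that set the composition of the endolymph. Below the epithelium lie connective tissue, cartilage, blood vessels, pigment cells, immune cells and the fibres of the eighth nerve, which Schwann cells wrap in myelin. Each of these tissues makes some proteins that the others hardly make, such as globins in red blood cells, keratins in epithelium and myelin basic protein in glia, and their transcripts are the means by which a mixture can be read.

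Values are RPKM, read numbers scaled by transcript length and by the mapped reads of the sample, which can be compared between genes because they are given per length. The table holds 31701 genes with a value in every sample, and the 3 nsSC samples had between 14111 and 14228 genes at 1 RPKM or more. Their RPKM values summed to 976739, 1012810 and 991979, and all shares below are percentages of these sums. RPKM carry no counts, so that the number of reads behind a value cannot be read from the table. In such bulk samples, fewer cells of a type and less RNA per cell cannot be told apart, and a share of RPKM is therefore not a share of cells.

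Mitochondrial transcripts made up most of each nsSC sample. The 37 mitochondrial entries took 53.9%, 52.5% and 53.8% of the total RPKM, against 15.5% ± 0.48 (SD, n = 3) in HCs, and 13 named mitochondrial genes alone took 39.4%, 35.5% and 38.6%. The 85 genes of cytosolic ribosomal proteins took 5.02% ± 0.44 (SD, n = 3). The 100 most abundant genes held 67.0% ± 0.34 of the total, and between 293 and 326 genes held 50% of what was left without the mitochondrial entries.

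**Figure D1:**
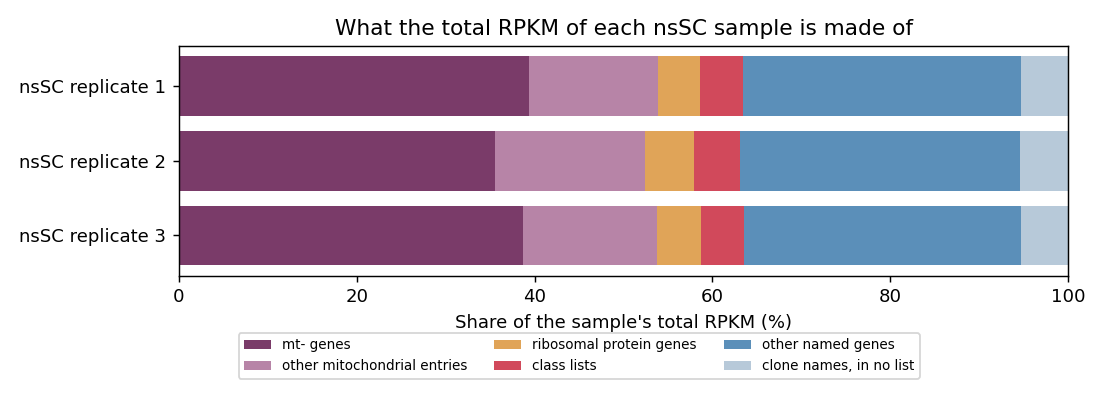
Share of the total RPKM (x axis, %) taken by mitochondrial genes, other mitochondrial entries, ribosomal protein genes, the 26 cell class lists together, other named genes and genes with a clone name, 1 bar per nsSC sample. Mitochondrial entries fill 53.9%, 52.5% and 53.8% of the 3 bars, and the class lists fill between 4.79% and 5.10%.

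To read the mixture, 26 lists of genes that mark a cell class were written from general knowledge, with earlier results of these data known. The summed RPKM of each list was taken as a share of the sample's total. The lists hold 605 genes, of which 340 were at 1 RPKM or more in all 3 nsSC samples (56.2%, against 41.6% of all 31701 genes), 222 were below 1 RPKM in all 3 and 58 were listed at 0 in all 3. Together they took 4.79%, 5.10% and 4.89% of the total, so that most transcripts were in no list. Without the mitochondrial entries the lists took 10.6%, and named genes outside every list that were not ribosomal took 67.3%. The lists differ in length and in how abundant their leading genes are in the cells they mark, and the order of the shares is an order of transcript amounts only.

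Red blood cells had the largest share, with 2.31% ± 0.150 (SD, n = 3, as for all shares). Myelinating glia followed with 0.563% ± 0.0213, epithelium with 0.433% ± 0.0127, skeletal muscle with 0.353% ± 0.0209, astrocyte-like and other glia with 0.265% ± 0.00483, and fibroblasts and connective tissue with 0.261% ± 0.00325. These 6 classes kept this order in each of the 3 samples. The next 4 were macrophages and microglia (0.149% ± 0.00238), cartilage and bone (0.135% ± 0.00453), ionocytes and canal epithelium (0.130% ± 0.00463) and mural and smooth muscle cells (0.0963% ± 0.00213).

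The list for supporting cells of the sensory patch came only after these 10 classes, with 0.0378% ± 0.00134. The range of this share overlapped that of the hair cell list (0.0370% ± 0.00104). In HCs the supporting cell list took 0.182%. As a whole it therefore does not tell supporting cells from hair cells, and its place in the order cannot be read as that of supporting cells. Between 0.01% and 0.04% lay neutrophils and mast cells (0.0353% ± 0.00161), lymphocytes (0.0290% ± 0.0000517), xanthophores and iridophores (0.0239% ± 0.000422), neurons (0.0183% ± 0.000580), vascular endothelium (0.0174% ± 0.0000248) and thrombocytes (0.0133% ± 0.000438). Of neighbours in the order, the ranges of the 3 samples overlapped between astrocyte-like glia and fibroblasts, between cartilage and ionocytes, between supporting and hair cells, between hair cells and neutrophils, between hepatocytes and dividing cells, and between cardiac muscle and melanophores. All other neighbours were apart in all 3 samples, by ratios of their means from 1.05 (neurons against endothelium) to 4.09 (red blood cells against myelinating glia).

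**Figure D2:**
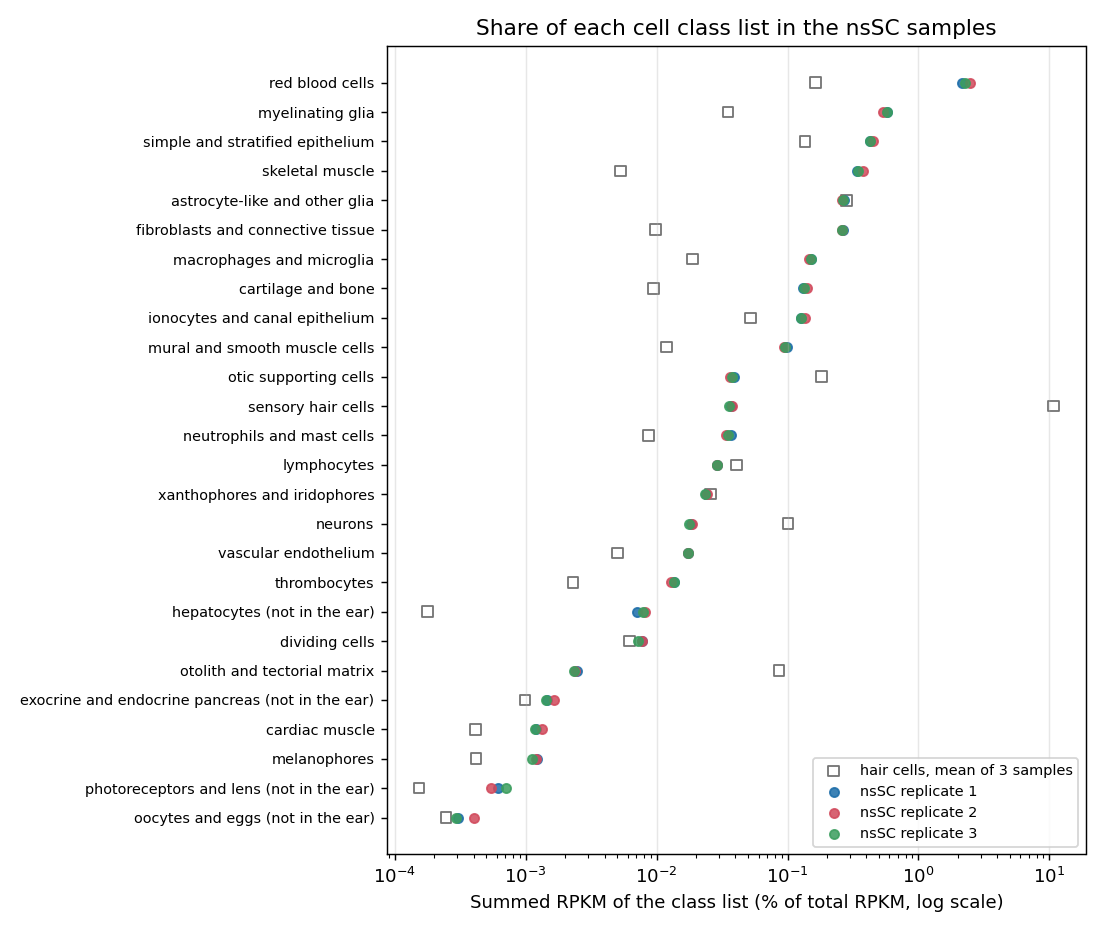
Summed RPKM of each of the 26 class lists as a share of total RPKM (x axis, %, log scale), with 1 filled point per nsSC sample and an open square for the mean of the 3 hair cell samples. Red blood cells lead at 2.31% in nsSCs, and the hair cell list takes 10.8% in hair cells and 0.0370% in nsSCs.

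For orientation, the class members were also set against HCs with limma on log2(RPKM + 0.1), for all 22374 genes whose mean reached 0.1 RPKM in nsSCs, in HCs or in both. Calls needed an adjusted p (Benjamini-Hochberg) under 0.05 together with a difference of 2-fold or more, which made 35.4% of the tested genes higher in nsSCs and 31.0% lower. Of the 605 members, 86 were below the filter and 519 were tested, and 345 of these were called higher in nsSCs, 92 lower and 82 neither. The median log2 difference was 2.54 over the tested members and 0.0004 over all tested genes. A member that passed the filter only through its level in nsSCs was bound to lie higher there, so that these counts describe the lists and do not support them. The counts of each class below are to be read beside the 35.4% and 31.0% of all tested genes. Lists of cells that are not part of the ear leaned the same way. Higher in nsSCs were 7 of 9 tested members for hepatocytes (1 lower) and 5 of 6 for oocytes (0 lower). For pancreas it was 3 of 5 (1 lower) and for photoreceptors and lens 3 of 5 (1 lower).

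**Figure D3:**
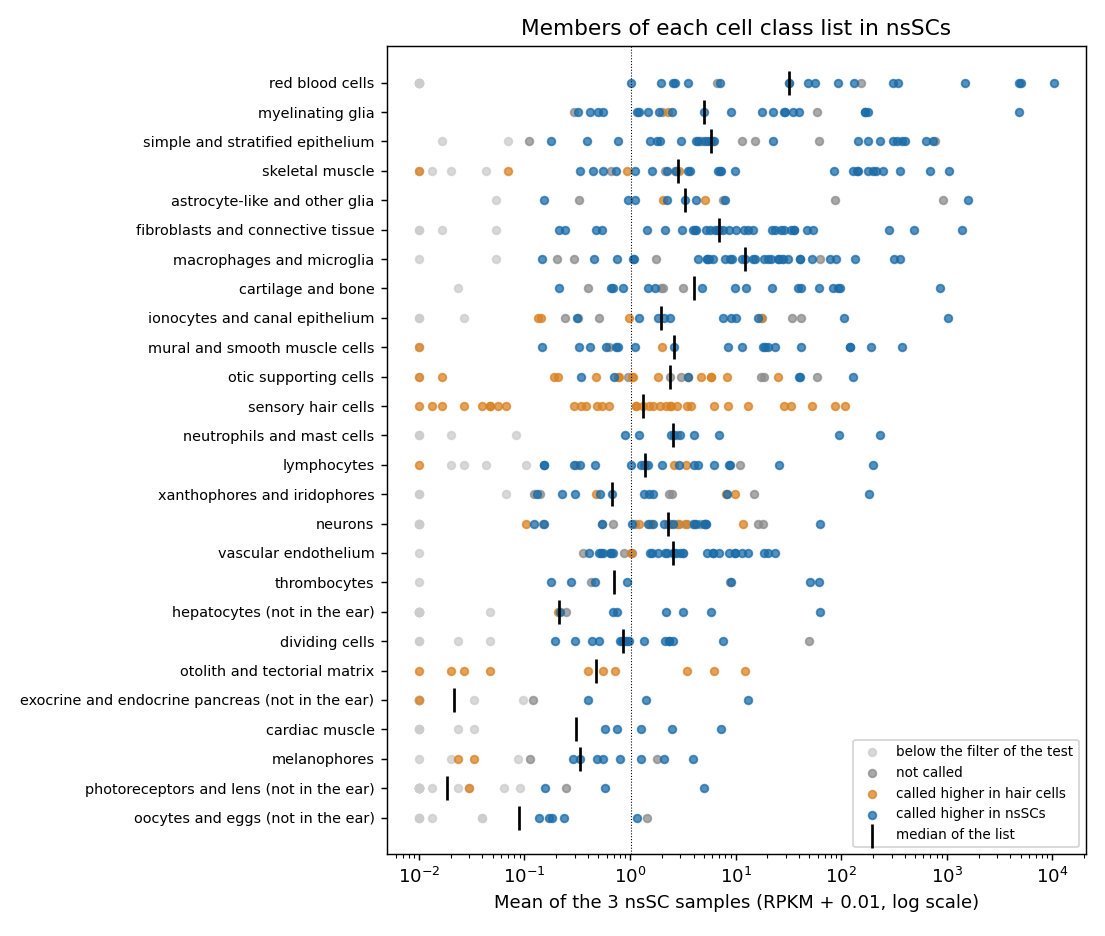
Mean RPKM of every class member over the 3 nsSC samples (x axis, RPKM + 0.01, log scale), 1 row per class, with black bars at the list medians and the dotted line at 1 RPKM. Blue members were called higher in nsSCs, orange ones higher in hair cells. All 35 members of the hair cell list are orange, as are 16 of 28 tested supporting cell genes, while the fibroblast, macrophage and red blood cell rows hold no orange point.

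The 6 genes given as markers of nsSCs were all abundant. The myelin gene mbpa, which codes for myelin basic protein, was at 4878, 4702 and 4876 RPKM in the 3 samples and ranked 18, 20 and 19 among all genes. The extracellular matrix gene matn4 (a matrilin) was at 861, 868 and 866 RPKM, and the keratin gene krt91 was at 707, 792 and 741 RPKM. Both sat within the first 100 ranks of every sample.

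The gene of the connective tissue proteoglycan decorin, dcn, was at 496, 505 and 483 RPKM, the epithelial keratin gene krt4 at 372, 389.9 and 375 RPKM and wnt2, which codes for a secreted Wnt ligand, at 244, 253 and 236 RPKM. The last was the lowest of the 6 and still ranked 329, 336 and 337. In HCs wnt2 was at 0.01 ± 0.01 RPKM and krt91 at 0.18 ± 0.10 RPKM, while mbpa was at 133 ± 5.78 RPKM. The log2 difference of nsSCs from HCs was 5.18 ± 0.04 (SE, adjusted p = 9.42e-10) for mbpa by limma. Since mbpa was given as a marker of nsSCs, this value describes it and is no support for its choice. The 6 genes thus belong to at least 3 different tissues, glia, epithelium and connective tissue.

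Globin transcripts dominated the red blood cell list. Of 2 entries with the symbol hbba1 (adult beta globin), ENSDARG00000089087 was at 9486, 11199 and 10294 RPKM and ENSDARG00000097238 at 4703, 5402 and 4921 RPKM. The alpha globin gene hbaa1 was at 4445, 5394 and 4763 RPKM and hbba2 at 1329.8, 1711 and 1452 RPKM. The first of these entries was the most abundant gene outside the mitochondrial entries, and every one of the 4 was highest in replicate 2. Globin genes are near-identical copies, so that reads may be split between them and each single value is uncertain.

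The 11 globin entries made up 96.0% of the list. The 14 other members took 0.0954%, 0.0913% and 0.0915% of the total, which would be place 10 among the classes, and replicate 2 was not the highest for them. The erythroid heme synthesis gene alas2 was at 131, 136 and 129.97 RPKM, the anion exchanger gene slc4a1a at 49.2, 46.0 and 50.3 RPKM and the transcription factor gene gata1a at 57.4, 57.6 and 55.4 RPKM. The carbonic anhydrase gene cahz was at 358, 344 and 346 RPKM and klf1, another erythroid transcription factor gene, at 33.2, 32.1 and 31.1 RPKM. The highest sample of these 5 genes was 1.04 to 1.09 times the lowest, against 1.21 times for hbaa1 and 1.29 times for hbba2. Both hbba1 entries differed less between samples than hbaa1. Of the list, 19 of 25 members were at 1 RPKM or more in all 3 samples. Of 20 tested members, 17 were higher in nsSCs by limma and 0 lower.

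In the myelinating glia list, mbpa alone made up 86.1% of the summed RPKM. The next members were pmp22a (peripheral myelin protein 22) at 169, 183 and 182 RPKM, mbpb (a second myelin basic protein gene) at 171, 159.8 and 175 RPKM and cd59 at 167, 159 and 181 RPKM. These 3 reached 3.50% to 3.70% of the level of mbpa. The myelin protein zero gene mpz, a main adhesion protein of peripheral myelin, was at 30.2, 27.7 and 29.8 RPKM, the proteolipid gene plp1b at 39.8, 40.6 and 39.0 RPKM and the glial and neural crest transcription factor gene sox10 at 59.6, 62.1 and 56.5 RPKM.

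The defining glial genes were thus all present, with mpz at 0.607%, plp1b at 0.826% and sox10 at 1.23% of the level of mbpa. Their values differed little between samples, and sox10 was also at 42.1 ± 2.77 RPKM in HCs, where it was not called different. In the list, 18 of 25 members were at 1 RPKM or more in all 3 samples, and 21 of 25 tested were higher in nsSCs by limma, with 1 lower (ugt8).

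The astrocyte-like list rested on glutamine synthetase, which detoxifies glutamate in glia but is also found in other tissues. The gene glulb was at 1590.0, 1614 and 1583 RPKM and made up 60.6% of the list, and glula was at 925, 904 and 918 RPKM. The latter was at 1669.7 ± 13.1 RPKM in HCs and was not called. The defining members were far lower, with fabp7a (a fatty acid binding protein of radial glia) at 88.9, 89.1 and 85.9 RPKM, slc1a2b at 1.67, 1.82 and 2.66 RPKM, gfap at 1.36, 0.97 and 0.97 RPKM and aqp4 at 0.18, 0.08 and 0.17 RPKM. By limma 8 of 14 tested members were higher in nsSCs and 2 lower. As a share of the total the list took more in HCs (0.283%) than in nsSCs (0.265%). Its summed RPKM were 2028, 1988 and 2003 in HCs against 2640, 2640 and 2623 in nsSCs, so that the direction depended on the scale. The place of this class in the order therefore came from 2 genes that are not particular to glia, and gfap, the best known astrocyte gene, was near 1 RPKM.

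Epithelial transcripts were spread over many genes, and no member held more than 17.9% of the list. The keratin genes krt5 at 748, 819 and 746 RPKM, krt18 at 619, 659 and 619 RPKM and krt15 at 393, 428 and 390.4 RPKM were the most abundant beside krt91 and krt4. The epithelial adhesion gene epcam was at 320.5, 357 and 332 RPKM, krt8 at 222, 249.9 and 221 RPKM, the claudin gene cldnb at 178, 182 and 177 RPKM and the cadherin gene cdh1 at 5.83, 5.57 and 5.03 RPKM. Simple epithelial keratins (krt8, krt18) and keratins of layered epithelium (krt5, krt15) were thus both in the mixture, while cdh1 lay far below epcam.

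Of the epithelium list, 27 of 33 members were at 1 RPKM or more in all samples, and by limma 23 of 31 tested were higher in nsSCs and 0 lower. The most abundant member was among those not called, since krt5 was at 642 ± 17.9 RPKM in HCs.

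The ion-transport list was carried by a sodium pump subunit. The gene atp1a1a.4, an alpha subunit of the Na,K-ATPase, was at 987, 1081 and 999.7 RPKM and made up 79.1% of the list, and atp1a1a.1 was at 98.1, 113 and 107 RPKM. Outside the list, the pump's beta subunit gene atp1b1a was at 2609, 2583 and 2612 RPKM. The transcription factor genes of ionocytes were far lower, with foxi1 at 9.90, 8.91 and 8.37 RPKM and foxi3b at 1.79, 1.62 and 2.08 RPKM, and slc26a4 (pendrin, the anion exchanger of the endolymphatic duct) was at 0.03, 0.02 and 0.00 RPKM.

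The potassium channel gene kcnq1 was at 6.67, 8.08 and 7.94 RPKM, and slc12a2, the cotransporter that loads potassium into endolymph-secreting cells, had 2 entries at means of 41.2 and 34.6 RPKM. By limma 11 of 21 tested members were higher in nsSCs and 4 lower, among them the proton pump gene atp6v1ba at 219 ± 2.52 RPKM in HCs against 17.4 ± 1.71 RPKM. Sodium pump transcripts were therefore abundant, pendrin transcripts were near 0, and the list as a whole did not move one way.

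Connective tissue genes formed a broad group. The retinol binding protein gene rbp4, which other tissues also use, was at 1387, 1389.7 and 1389 RPKM, which made up 53.5% of the list, and dcn and pcolcea (an enhancer of procollagen processing, at 276, 289 and 277 RPKM) followed. The proteoglycan gene lum was at 28.2, 29.8 and 28.9 RPKM, the collagen gene col1a2 at 9.96, 10.5 and 9.51 RPKM, the fibroblast receptor gene pdgfra at 6.70, 6.56 and 6.95 RPKM and the mesenchymal transcription factor gene prrx1a at 46.0, 51.9 and 44.7 RPKM. All 4 defining members (dcn, lum, col1a2, pdgfra) were detected in all samples. By limma 33 of 34 tested members were higher in nsSCs and 0 lower, against 35.4% and 31.0% of all tested genes.

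Cartilage genes accompanied them. The chondromodulin gene lect1 (cnmd in the reference names) was at 814, 931 and 840.5 RPKM and made up 64.3% of its list, and the cartilage collagen genes col2a1a and col9a2 were at 42.4, 43.2 and 40.2 RPKM and 78.8, 84.0 and 85.8 RPKM. The bone matrix gene bglap was at 94.2, 104 and 96.8 RPKM, whereas sp7, the transcription factor gene of osteoblasts, was at 0.02, 0.00 and 0.02 RPKM and acana (aggrecan) at 0.44, 0.40 and 0.32 RPKM. Of the 4 defining members, col2a1a and bglap were thus abundant, and the other two were below 1 RPKM. By limma 17 of 21 tested members were higher in nsSCs and 0 lower.

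Skeletal muscle transcripts came next to epithelium in amount. The small calcium buffers of fast muscle led, with pvalb3 at 987, 1156 and 1029 RPKM and pvalb4 at 671, 749 and 669.8 RPKM, followed by the fast myosin light chain gene mylpfa at 340.3, 389 and 341 RPKM. The troponin gene tnnt3b was at 127, 157 and 137 RPKM and the creatine kinase gene ckma at 116, 139 and 133 RPKM. Every one of these was highest in replicate 2.

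Other genes of the muscle fibre were much lower per length. The alpha actin gene acta1b was at 9.16, 10.1 and 10.21 RPKM, the calcium pump gene atp2a1 at 6.27, 7.46 and 6.53 RPKM, nebulin (neb) at 6.55, 7.78 and 6.75 RPKM and titin (ttn.2) at 1.53, 1.80 and 1.49 RPKM. The 5 myosin heavy chain entries of the list (myhz1.1 with 2 entries, myhz1.2, myhz1.3 and myhz2) had means of 3.68 RPKM or less. Muscle actins and myosin heavy chains are families of near-identical copies, so that their values are uncertain. Of the list, 23 of 36 members were at 1 RPKM or more in all samples, and by limma 25 of 32 tested were higher in nsSCs and 4 lower. The gene myog, which marks differentiating muscle precursors, was at 0.00, 0.10 and 0.00 RPKM.

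Mural and smooth muscle genes were present in addition. The smooth muscle actin gene acta2 was at 116, 121 and 124 RPKM, the actin-binding gene tagln at 109.8, 132 and 119 RPKM and the regulatory myosin light chain gene myl9b at 408, 336 and 380.2 RPKM, while the smooth muscle myosin heavy chain gene myh11a was at 0.93, 1.24 and 1.13 RPKM. By limma 19 of 22 tested members were higher in nsSCs and 2 lower. Of 10 cardiac muscle genes 3 were at 1 RPKM or more in all 3 samples, led by the calcium pump gene atp2a2a at 7.44, 7.84 and 6.32 RPKM, while the heart-specific myosin light chain genes myl7 and cmlc1 were listed at 0. By limma 5 of 5 tested were higher in nsSCs, against 35.4% of all tested genes. With a pseudocount or a filter of 1 RPKM, 3 were called higher.

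Among the immune lists, that of macrophages and microglia had the largest share. The invariant chain gene cd74a was at 376, 331 and 367 RPKM, the granulin gene grn2 at 295, 343 and 314 RPKM and the apolipoprotein gene apoeb at 129, 137 and 137 RPKM. The defining genes of the list were lower, with mpeg1.1 (a pore-forming protein) at 6.06, 5.45 and 5.23 RPKM, marco at 4, 5.2 and 4.1 RPKM, c1qa at 1.47, 0.57 and 1.23 RPKM and the receptor gene csf1ra at 1.29, 0.97 and 0.89 RPKM. In all samples 30 of 39 members were at 1 RPKM or more, and 32 of 37 tested members were higher in nsSCs by limma with 0 lower.

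Of the lymphocyte list, 69.5% was the entry ighv1-4, whose identifier is ighm (the mu heavy chain of antibodies) in the reference names, at 195, 208 and 198 RPKM. The T cell kinase genes zap70 and lck were at 2.99, 2.53 and 3.14 RPKM and 1.23, 1.23 and 1.92 RPKM, and the B cell receptor gene cd79a was at 0.51, 0.25 and 0.22 RPKM. By limma 18 of 24 tested members were higher in nsSCs and 3 lower. In HCs the list took 0.0408% of the total, against 0.0290% in nsSCs. Its summed RPKM were 288, 278 and 301 in HCs and 283, 295 and 288 in nsSCs. In the granulocyte list the leading gene was cfl1l at 239, 228 and 231 RPKM, while the neutrophil peroxidase gene mpx and mmp13a were at most 0.02 RPKM, lyz was at 2.87, 3.91 and 2.06 RPKM and npsn at 1.31, 0.73 and 0.59 RPKM. Of the 4 defining granulocyte genes, 2 were thus at or near 0.

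Endothelial genes were detected in number but at low levels. The transcription factor gene fli1a was at 18.3, 18.7 and 18.6 RPKM, the water channel gene aqp1a.1 at 23.4, 22.7 and 24.4 RPKM, the VEGF receptor gene kdrl at 2.92, 2.57 and 2.32 RPKM and the cadherin gene cdh5 at 0.61, 0.71 and 0.57 RPKM. No endothelial member reached 25 RPKM, and 29 of 34 tested were higher in nsSCs by limma with 1 lower. Among thrombocyte genes, gp9 (a platelet adhesion receptor) was at 59.5, 63.1 and 63.1 RPKM and itga2b at 0.49, 0.42 and 0.47 RPKM.

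Neuronal genes were detected in number too, with 25 of 39 members at 1 RPKM or more in all 3 samples, but at low levels. The synaptic gene snap25a was at 18.4, 17.8 and 17.9 RPKM, the RNA-binding protein genes elavl3 and elavl4 at 4.41, 5.47 and 2.83 RPKM and 1.86, 2.98 and 2.04 RPKM, and the neurofilament gene nefla at 3.70, 4.97 and 3.23 RPKM. The highest value of this list was that of ntrk2a, which codes for a neurotrophin receptor, at 61.0, 65.1 and 60.9 RPKM. By limma 14 of 35 tested neuronal genes were higher in nsSCs and 6 lower, which for the higher calls is 40% and near the 35.4% of all genes. With median-ratio scaling, or with the mitochondrial entries out, 20 neuronal genes were called higher, while the calls over all genes rose too. In HCs the neuron list took between 0.0977% and 0.104% of the total, against 0.0183% in nsSCs. As a whole it therefore does not tell neurons from hair cells, and its place in the order cannot be read as that of neurons.

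Pigment cell transcripts were few, with the melanophore genes tyrp1b at 1.33, 1.24 and 1.21 RPKM and dct at 0.00, 0.04 and 0.00 RPKM, and with the xanthophore gene gch2 at 1.43, 1.51 and 1.11 RPKM and the iridophore gene pnp4a at 0.10, 0.06 and 0.18 RPKM. The share of the xanthophore and iridophore list came mostly from fhl2a (182, 191 and 179.8 RPKM), a LIM protein gene that is not restricted to pigment cells. In HCs this list took 0.0258% of the total, against 0.0239% in nsSCs. Its summed RPKM were 182, 189 and 177 in HCs and 233, 246 and 233 in nsSCs. Of dividing cell genes, pcna was at 50.1, 53.3 and 46.0 RPKM and mki67 at 0.29, 0.28 and 0.30 RPKM.

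The genes of the sensory epithelium other than hair cells were low in this mixture. Of the supporting cell genes, the Notch modulator gene lfng was at 3.86, 3.33 and 3.37 RPKM, the progenitor transcription factor gene sox2 at 1.31, 1.04 and 0.77 RPKM, the Notch ligand gene jag1b at 2.18, 2.66 and 2.30 RPKM and the otic transcription cofactor gene eya1 at 8.74, 7.76 and 8.27 RPKM. By limma 6 of 28 tested members were higher in nsSCs and 16 lower. Among the lower ones sox2 was at 31.0 ± 2.89 RPKM in HCs, lfng at 27.8 ± 1.83 RPKM and eya1 at 200.03 ± 2.41 RPKM.

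Some genes of otic epithelium were higher in nsSCs. The homeobox genes hmx2 and hmx3a, which pattern the otic vesicle, were at 42.3, 39.9 and 41.0 RPKM and 40.6, 40.9 and 37.3 RPKM, and the claudin gene cldna was at 137, 122 and 129.5 RPKM and made up 34.5% of the list. The log2 difference from HCs was 3.21 ± 0.09 (SE, adjusted p = 8.63e-08) for hmx3a by limma. The proteins of the otolith and of the tectorial membranes are secreted by non-sensory and supporting cells of the ear, and all 10 of their listed genes were lower in nsSCs by limma, with tectb at 3.85, 3.33 and 3.28 RPKM against 172 ± 6.38 RPKM in HCs and otomp at 4.75, 6.80 and 7.06 RPKM against 121 ± 4.70 RPKM.

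The hair cell list was used to describe the selection by GFP and bundle, and it is no independent check of it. The transcription factor gene pou4f3, whose promoter drives the GFP, was at 1.2, 1.43 and 1.35 RPKM in nsSCs and at 342 ± 19.1 RPKM in HCs. The calcium-binding protein gene s100s was at 88.5, 84.5 and 89.2 RPKM in nsSCs, and the synaptic gene otofb at 2.76, 5.84 and 1.87 RPKM. All 35 members were lower in nsSCs by limma, and since the cells were picked by GFP and bundle it is no finding.

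The level of the hair cell genes in nsSCs as a percentage of that in HCs had a median of 0.344% (range 0% to 11.1%), and 7 of 35 were above 1%. Of the 23 members of at least 100 RPKM in HCs, 1 was above 1%. The 11.1% was that of the calcium channel gene cacna1da, at a mean of 0.33 RPKM against 2.98 ± 0.31 RPKM in HCs. In the single samples the median was 0.337%, 0.367% and 0.332%. The paper reports many of these genes as higher in hair cells in these same data, among them s100s, pvalb9, cabp2b, otofb, rtn4rl2b and tspan13b. The median is therefore not independent of these data. The outliers toward nsSCs were chosen after their values were seen. The plasma membrane calcium pump gene atp2b1a, which many cell types use, was at 104, 121 and 99.9 RPKM against 1005 ± 22.6 RPKM in HCs. The hair cell fate gene atoh1a was at 1.26, 3.07 and 2.14 RPKM, which is 5.76% of its level in HCs (37.4 ± 1.58 RPKM).

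**Figure D4:**
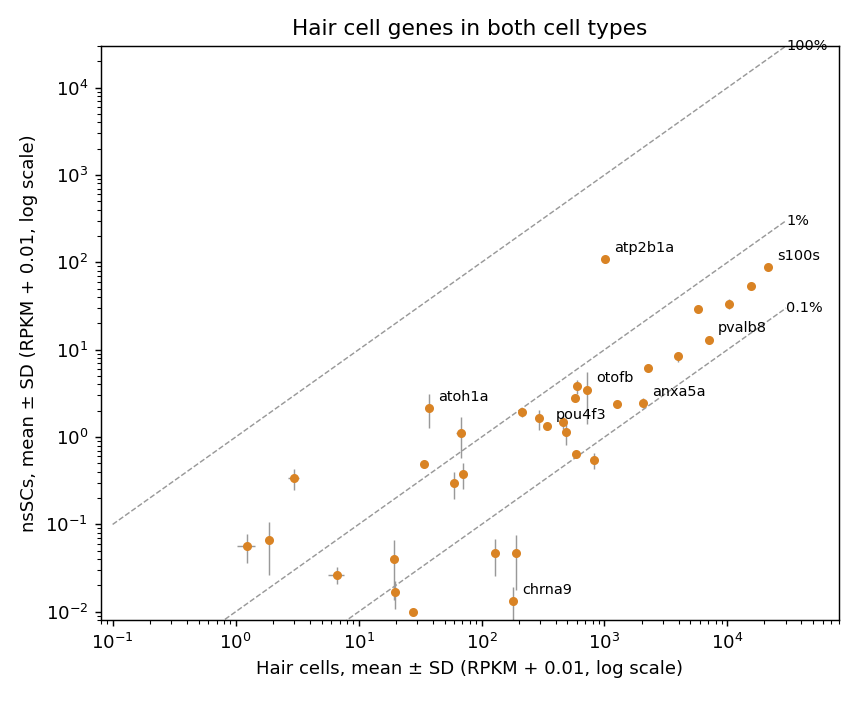
Mean RPKM of the 35 hair cell genes in hair cells (x axis) and nsSCs (y axis), both as RPKM + 0.01 on log scales with bars of 1 SD over 3 samples, and dashed lines at 100%, 1% and 0.1%. Most genes lie between the 2 lower lines, and atp2b1a lies highest above them among the abundant genes.

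Lists of 4 kinds of cell that are not part of the ear gave the level that the transcripts of these 4 reached. That level is no bound for other tissues, since skeletal muscle, which is not among the ear tissues named above, was at 0.353%. The hepatocyte list was at 0.00767% ± 0.000559, of which ceruloplasmin (cp, at 57.0, 66.4 and 65.9 RPKM) made up 82.7%, and without it the list fell to 0.00133%. The pancreas list was at 0.00151% ± 0.000121, the list of photoreceptors and lens at 0.000619% ± 0.0000800 and the oocyte list at 0.000336% ± 0.0000609. The lists of dividing cells (0.00753% ± 0.000280), otolith and tectorial matrix (0.00239% ± 0.0000692), cardiac muscle (0.00124% ± 0.0000849) and melanophores (0.00118% ± 0.0000515) lay within the range of these 4 lists. The upper end of that range rested on cp. Without cp, dividing cells and the otolith and tectorial matrix list lay above all 4 lists, while cardiac muscle and melanophores still lay within their range. With the most abundant member out of every list, dividing cells (0.00251%) lay above all 4 lists. The otolith and tectorial matrix list (0.00115%) then lay below hepatocytes (0.00133%). The shares of cardiac muscle and melanophores can thus not be told from those of the 4 lists. For dividing cells and for the otolith and tectorial matrix list it depends on single genes such as cp.

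Several of the most abundant genes belonged to no list. The second most abundant gene outside the mitochondrial entries was coch, which codes for cochlin, a secreted matrix protein of the inner ear, at 9505, 9782 and 9469.5 RPKM, or 0.96% of the total. The gene epd (ependymin, a secreted glycoprotein of fish brain fluid) was at 3651, 3860.4 and 3707 RPKM and icn (ictacalcin, an S100 calcium-binding protein of fish epithelium) at 3509.9, 3990.5 and 3603 RPKM. Together these 3 exceeded the summed RPKM of the epithelium, muscle and connective tissue lists.

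The prostaglandin D synthase genes ptgdsb.1 and ptgdsb.2 were at 1482, 1679 and 1489.5 RPKM and 1431, 1523 and 1445 RPKM, and the secreted chaperone gene clu (clusterin) was at 2584, 2565 and 2648 RPKM. The oxygen-binding myoglobin gene mb was at 2556, 2778 and 2580.4 RPKM, yet it was higher still in HCs (9989 ± 185 RPKM). The same order held for the glycolytic gene gapdhs, at 1774, 1897 and 1827 RPKM against 4839 ± 171 RPKM. The mitochondrial carrier gene slc25a5 and the actin gene actb2 were at 3268, 3490.2 and 3308 RPKM and 3276, 3451 and 3352 RPKM.

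The 3 samples were close to each other. The Pearson correlation across the 31701 genes was 0.9905 between replicates 1 and 2, 0.9994 between 1 and 3 and 0.9943 between 2 and 3, a description over genes that share a library. Without the mitochondrial entries the values were 0.9965, 0.9992 and 0.9986. The coefficient of variation had a median of 5.19% among the 757 genes averaging 100 RPKM or more and of 8.85% among the 13178 genes that reached 1 RPKM in all 3.

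Replicate 2 stood apart from the others in a way that differed between classes. It was the highest sample for 43.9% of the 13178 genes, for 83 of 85 ribosomal protein genes and for 1 of 13 named mitochondrial genes. Of the class members that reached 1 RPKM in all 3 samples, it was highest for 19 of 23 skeletal muscle genes, 12 of 19 red blood cell genes and 17 of 27 epithelial genes, but for 5 of 18 myelinating glia genes. The summed shares were 2.17%, 2.47% and 2.28% for red blood cells and 0.339%, 0.377% and 0.344% for skeletal muscle in replicates 1, 2 and 3. They were 0.579%, 0.539% and 0.572% for myelinating glia and 0.265%, 0.259% and 0.260% for fibroblasts. Replicate 2 was the highest sample for 15 of 30 fibroblast genes, although their share was lowest there. Shares are divided by the total RPKM, which was largest in replicate 2, and the counts of genes are not. Without replicate 2 the shares were 2.23% for red blood cells and 0.341% for skeletal muscle. The part of the ribosomal and mitochondrial shares in these differences was not tested.

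**Figure D5:**
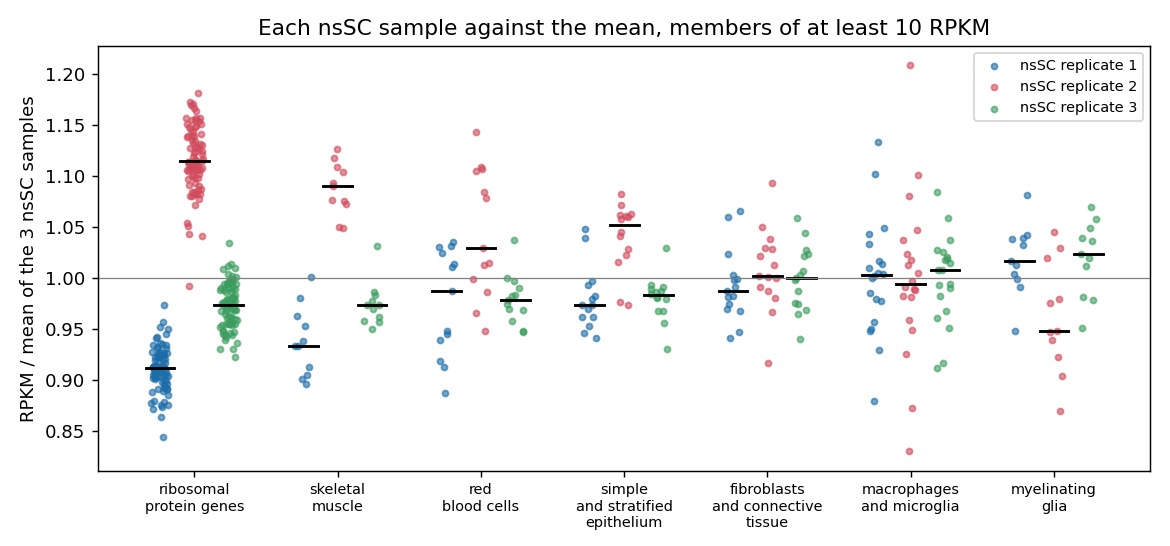
RPKM of each gene in a sample divided by its mean over the 3 nsSC samples (y axis), for ribosomal protein genes and members of 6 classes of at least 10 RPKM, 1 point per gene and sample, with black bars at the medians. All 11 muscle genes and 82 of 83 ribosomal protein genes are highest in replicate 2, against 51.0% of all 4828 genes of that level. Fibroblast and macrophage genes scatter around 1 in each sample.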

How the data were processed

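RNA of about 1000 cells per sample was measured in 3 nsSC and 3 HC samples. The authors prepared cDNA with the SMART-Seq v4 low-input kit and Nextera libraries, mapped paired reads to GRCz10 with CLC Genomics Workbench, estimated expression with a step that they call HTSeq count, and deposited RPKM values with 2 decimals for every gene. Versions of the mapping and counting tools are not given in the sources used here. RPKM fixes length and mapped reads, so that abundant mitochondrial transcripts lower the RPKM of all other genes in a sample. Of 35919 deposited entries, 4218 have no values, and 31701 genes were used by identifier, of which 26237 were in the reference list of names. Of 631 names in the class lists 602 were found. A gene in 2 lists counted in the first, and the first 4 of a list are called its defining members. Among the members, 27 had the same values as another gene.

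Shares are the summed RPKM of a list over the sample's total RPKM, as mean ± SD, with no test. Differences from HCs came from limma 3.58.1 in R 4.3.3 on log2(RPKM + 0.1), with trended and robust moderation (statmod 1.5.0), a filter of 0.1 RPKM and Benjamini-Hochberg adjustment, a scale that understates the change of low genes. The fit was also run on simulated data, in which both groups shared the same means save for a small set of changed genes. In the real data most tested genes were called, so that this run does not vouch for the calls. The methods call the 3 samples of each cell type biological replicates, while the labels do so for HCs only. Alternatives were other pseudocounts, filters and scalings, unmoderated limma, a replicate block, lists without their most abundant member and leaving out each sample. Shares and plots used pandas 2.3.3, numpy 2.4.6 and matplotlib 3.10.9 in Python 3.11.15. The members, lists and named genes were chosen with earlier results of these data known. Genes were named from the given markers, the defining members and up to 6 further members of a list by RPKM. Others came from the 25 most abundant genes that are neither mitochondrial nor ribosomal and the 10 most abundant in no list. The last set was the 5 of at least 100 RPKM that varied most. Not every gene of these sets is named. Members outside these sets (kcnq1, klf1, neb, ttn.2, atp2a1, myog, the myhz entries, ugt8, atoh1a and cacna1da) were named after their values were seen. No genome was used, so that coordinates and sequences are not given.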

Additional observations from a re-analysis of the deposited data

How the results depend on the processing

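Leaving out each nsSC sample in turn, or the mitochondrial entries from the total, kept the 6 classes with the largest share and their order. The shares depended on single genes. Without the most abundant member of each list they were 1.27% for red blood cells, 0.0782% for myelinating glia, 0.355% for simple and stratified epithelium, 0.247% for skeletal muscle, 0.105% for astrocyte-like and other glia, 0.122% for fibroblasts and connective tissue, 0.113% for macrophages and microglia, 0.0482% for cartilage and bone, 0.0272% for ionocytes and canal epithelium, 0.0586% for mural and smooth muscle cells, 0.0247% for otic supporting cells, 0.0261% for sensory hair cells, 0.0119% for neutrophils and mast cells, 0.00885% for lymphocytes, 0.00535% for xanthophores and iridophores, 0.0120% for neurons, 0.0151% for vascular endothelium, 0.00712% for thrombocytes, 0.00133% for hepatocytes, 0.00251% for dividing cells, 0.00115% for otolith and tectorial matrix, 0.000203% for exocrine and endocrine pancreas, 0.000511% for cardiac muscle, 0.000787% for melanophores, 0.000115% for photoreceptors and lens and 0.000192% for oocytes and eggs. Without the globin genes, an alternative chosen after seeing the data, red blood cells took 0.0927%. Without the most abundant members, of the first 6 classes 5 were shared with the reported order, with macrophages and microglia in the place of myelinating glia. Ordered by the median RPKM of the members 4 were shared, and macrophages and cartilage entered.

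Limma called 7917 genes higher in nsSCs and 6929 lower. With a pseudocount of 1 RPKM the higher calls were 4516 (5278 lower), and with a filter of 1 RPKM 5046 (6017 lower), the latter over fewer tested genes. Median-ratio scaling gave 9093 higher and 5471 lower calls, and taking out the mitochondrial entries 8739 and 5748. Median-ratio scaling moved the median of all genes by 0.44 on the log2 scale toward nsSCs and taking out the mitochondrial entries by 0.34, and under both the count of higher members of each class stayed within 1.5 times. All 35 hair cell genes stayed lower under every alternative, 15 or 16 of the supporting cell genes did, and 8 to 10 of the otolith and tectorial genes. Of the counts of higher members in single classes, 17 fell by over 1.5 times with the pseudocount or the filter of 1 RPKM, all in lists whose members lie mostly near or below that level. For hair cell genes of at least 100 RPKM in HCs, the median level in nsSCs was 0.324% of that in HCs.

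With a replicate block limma called 7934 genes higher and 6953 lower. Samples with the same number did not deviate together (correlations of -0.047, 0.023 and 0.001 over genes). With 3 samples per cell type this cannot show whether same-numbered samples came from the same fish, and the labels do not say. The paper's methods describe hair cells and nsSCs as taken from each fish, so that samples of both cell types may share fish. The main fit took all samples as independent. RPKM carry no counts, and low values were given no counting error.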

Other observations

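The genes that varied most among the nsSC samples, of those with a mean of at least 100 RPKM, were 5 short mitochondrial entries with clone names. Their coefficients of variation lay between 28.4% and 101%, against a median of 5.19% over the 757 genes of that level. The one that varied most was at 98.2, 203 and 0 RPKM in replicates 1, 2 and 3.

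The third most abundant gene outside the mitochondrial entries was si:ch211-5k11.8, at 8504, 10286 and 9176 RPKM, a gene with a clone name in the reference list too. It was in no class list, so that its 0.937% of the total RPKM counted toward no class share. The 2.31% of the red blood cell list is therefore a share without this gene. Like the globin genes of that list named above, it was highest in replicate 2 and lowest in replicate 1. Whether it codes for a globin itself was not tested. In HCs it was at 419.8 ± 20.1 RPKM (SD, n = 3).

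Transcripts of the red blood cell list were also in HCs, where they took 0.163% of the total RPKM against 2.31% in nsSCs.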
